A study of Mus musculus with 16 samples.

Results

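The response of normal mouse blood stem cells to interferon alpha was measured as 4 arrays labelled WT Interferon against 4 labelled WT vehicle, 8 of the 16 Illumina bead arrays of the series. The arrays were chosen by their labels alone. The cells were a haematopoietic stem cell (HSC)-enriched population of WT genotype with the CD45.1 allele, from mice of a strain background written C57B16. Treatment lasted 4 weeks, with a daily dose of 10000 units of interferon or with vehicle. The other 8 arrays were the same treatments in Jak2VF knock-in (CD45.2) cells, a model of polycythemia vera. They entered the fit because all groups shared 1 estimate of the spread, and are compared with WT cells only near the end. The sorting gate, and the age and number of the animals, are not given in the labels used here. It is not stated whether each array had its own mouse, and the p-values then reflect only how these samples vary, which may be technical.

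Interferon alpha binds a receptor made of Ifnar1 and Ifnar2, whose kinases Jak1 and Tyk2 activate transcription factors of the STAT family. Together with Irf9 these bind a short repeat of GAAA letters, the interferon-stimulated response element, in front of antiviral genes. Irf7 amplifies the response and Usp18 dampens it at the receptor. In marrow, long exposure to interferon is known to act on stem cells as well as on their offspring.

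The arrays differed in brightness, with a higher mean on interferon arrays in a difference that did not pass its test. Mean intensity was 1009, 293.7, 621 and 812.8 on WT interferon replicates 1 to 4, against 246.5, 413.7, 162.1 and 397.9 on WT vehicle replicates 1 to 4. On average interferon arrays stood at 684 ± 305 and vehicle arrays at 305 ± 122 (SD, n = 4 each). The ranges overlapped, and the log2 difference of 1.13 (2.18-fold) had an exact two-sided permutation p = 0.0857, or 0.114 after Benjamini-Hochberg adjustment over the brightness and detection tests. With 4 arrays in each group no p below 0.0286 can be reached. Without WT interferon replicate 2, the dim array of its group, the difference was 1.49. That value lies at p = 0.0286 in the exact test.

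Of 25697 probes, 12852, 10973, 12431 and 13055 were detected on WT interferon replicates 1 to 4, against 10023, 11590, 8209 and 11994 on WT vehicle replicates 1 to 4. Detection means that a probe's p against negative controls was under 0.05. The detected share was 48.0 ± 3.66% with interferon and 40.7 ± 6.7% with vehicle (SD, n = 4 each; difference 7.29 percentage points, exact permutation p = 0.114). WT vehicle replicate 3 was the dimmest array of the series and stood apart. Its median correlation with the other WT vehicle arrays was 0.903, where pairs in its group ran from 0.900 to 0.985 and WT interferon pairs from 0.959 to 0.993. WT interferon arrays always lay at the same 2 positions of a slide and WT vehicle arrays at another 2, so position and treatment cannot be told apart. Each of the 2 slides held 2 arrays of every group.

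**Figure D1:**
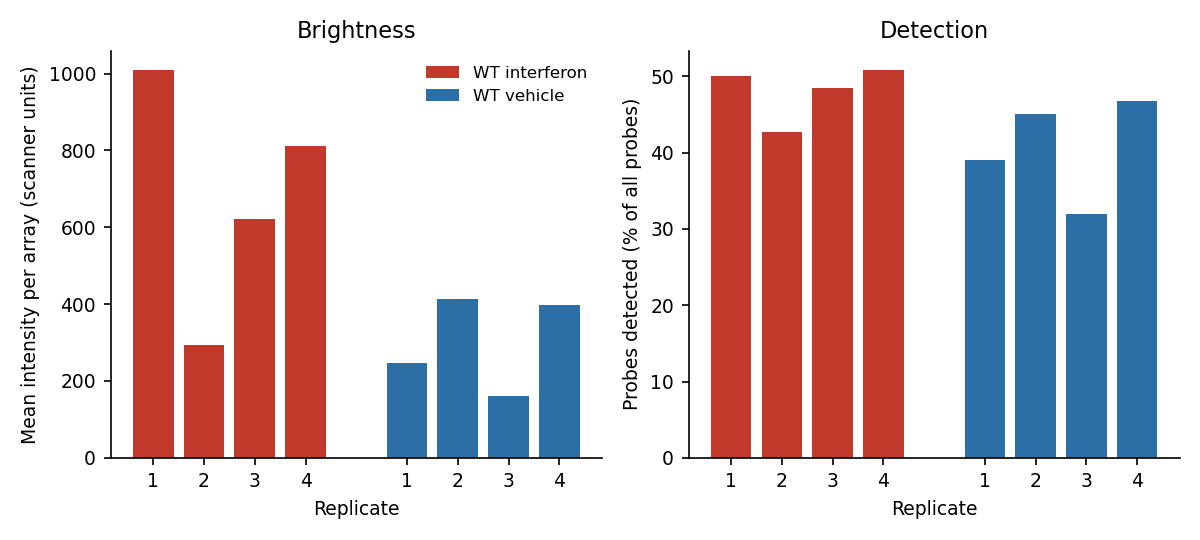
Mean intensity per array in scanner units (left) and the share of probes detected (right), one bar for each WT interferon array (red) and WT vehicle array (blue). WT vehicle replicate 3 is lowest on both counts, at 162.1 and 8209 probes, and WT interferon replicate 2 is the dimmest of its group, at 293.7.

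Levels below are log2 intensities after background correction and quantile normalization, differences are interferon minus vehicle, and a gene counts as called at an adjusted p under 0.05 in limma, adjusted by Benjamini-Hochberg over all 9680 genes tested. With interferon 122 genes were higher (1.26% of those tested) and 98 were lower (1.01%), which makes 220 in all (2.27%). At an unadjusted p under 0.05 there were 3081 (31.8%), the share to set beside unadjusted counts given for lists below. Some list counts below leave out 1 array. Without WT interferon replicate 2, 1016 of the 9680 genes were called higher and 983 lower. Without WT vehicle replicate 2 it was 681 and 453, and without WT vehicle replicate 4 it was 908 and 701. These are the counts to set beside list counts with 1 of those arrays left out. The median change of all genes was 0.05. Called rises ran from 0.51 to 3.44 and called falls from −0.45 to −4.82, and 73 rises and 65 falls were at least 2-fold.

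Much of the response lay near background. Of the 122 genes that rose, 33 were detected on none of the vehicle arrays, 50 on some of them and 39 on all 4. Of the 98 that fell, 9 were detected on no interferon array, 29 on some and 60 on all 4. WT vehicle replicate 3 lacked a detected signal for 80 of the 122 rises and 15 of the 98 falls. Among 5656 genes detected on all 8 arrays, 39 were called higher (0.69%) and 59 lower (1.04%). This filter leaves out more rises than falls through the dim vehicle replicate 3, so the balance of these counts cannot show a direction. In bulk samples, fewer cells of a type and less RNA per cell cannot be told apart, which holds for every change given here.

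**Figure D2:**
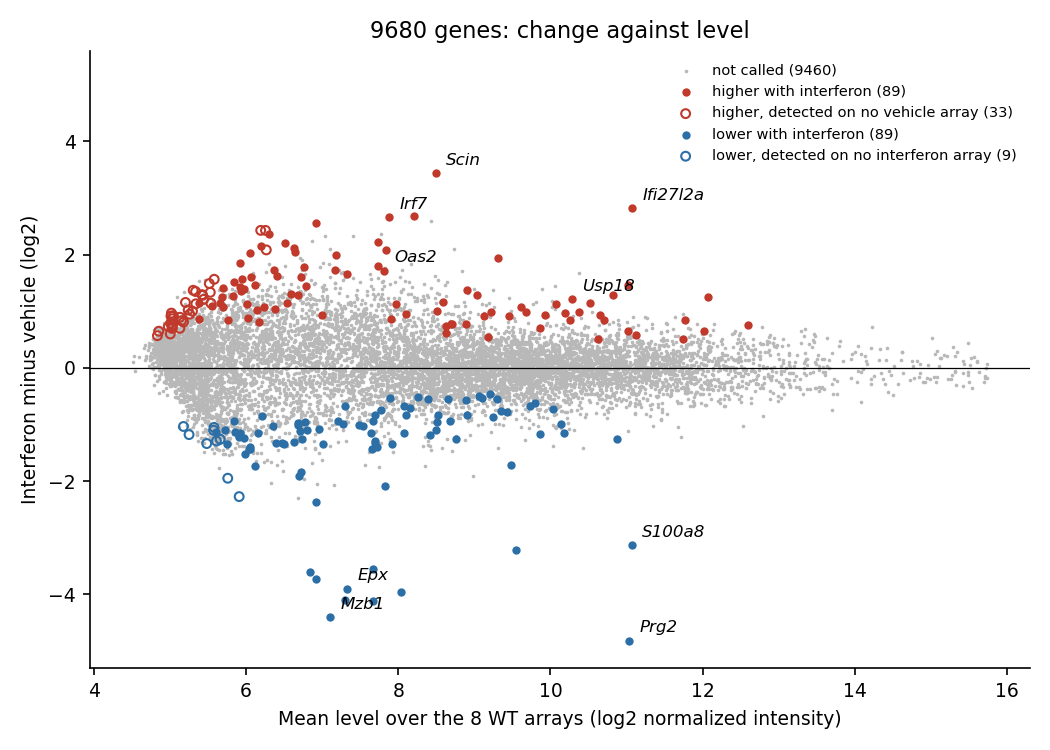
Interferon minus vehicle (log2) against the mean level over the 8 WT arrays, one point per gene. Filled red points are called higher and filled blue points called lower. Open points, 33 higher and 9 lower, were detected on no array of the dimmer group, and these lie at the low end of the levels.

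Interferon-regulated genes rose as a small set. Irf7, Ifi27l2a, Usp18, Oas2, Oas1g and Phf11d were higher with interferon on every array, and each stayed called when any 1 of the 16 arrays was omitted. Usp18, the protease that removes Isg15 and blocks the receptor, had the smallest adjusted p and the smallest SE of these 6. It stood at 10.71, 11.09, 10.90 and 10.84 with interferon, against 9.60, 9.74, 9.65 and 9.71 with vehicle. Its change was 1.21 (SE 0.11, 2.32-fold, adjusted p = 6.93e-05 in limma). Irf7, the transcription factor that feeds the response forward, stood at 8.71, 9.37, 9.47 and 9.28 with interferon, against 5.14, 6.82, 7.18 and 7.06 with vehicle. The groups did not overlap, and vehicle replicate 1, where the probe was not detected, was lowest. The change of Irf7 was 2.66 (SE 0.35, 6.33-fold, adjusted p = 0.00202 in limma).

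The interferon-inducible gene Ifi27l2a had values of 12.07, 13.00, 12.39 and 12.48 with interferon, against 9.48, 9.06, 11.26 and 8.87 with vehicle, where replicate 3 was highest, and the groups did not overlap. Its change was 2.82 (SE 0.46, adjusted p = 0.00645 in limma). Oas2 and Oas1g make the 2-5A messenger that activates RNase L against viral RNA. Oas2 stood at 8.50, 8.87, 8.79 and 8.52 with interferon, against 7.33, 6.95, 6.25 and 7.28 with vehicle, a change of 1.71 (SE 0.25, adjusted p = 0.00293 in limma). Its probe was detected on 3 of the 4 vehicle arrays. Oas1g stood at 10.51, 10.65, 10.81 and 10.74 with interferon, against 9.73, 9.84, 9.46 and 9.78 with vehicle, a change of 0.97 (SE 0.13, adjusted p = 0.00202 in limma). The Oas1 genes are close copies of each other, and which of them a probe reads is uncertain. Phf11d, of a family of PHD finger proteins, changed by 1.01 (SE 0.16, adjusted p = 0.00638 in limma), with values of 8.70, 8.92, 9.33 and 9.11 with interferon, against 7.78, 8.28, 8.02 and 7.96 with vehicle.

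**Figure D3:**
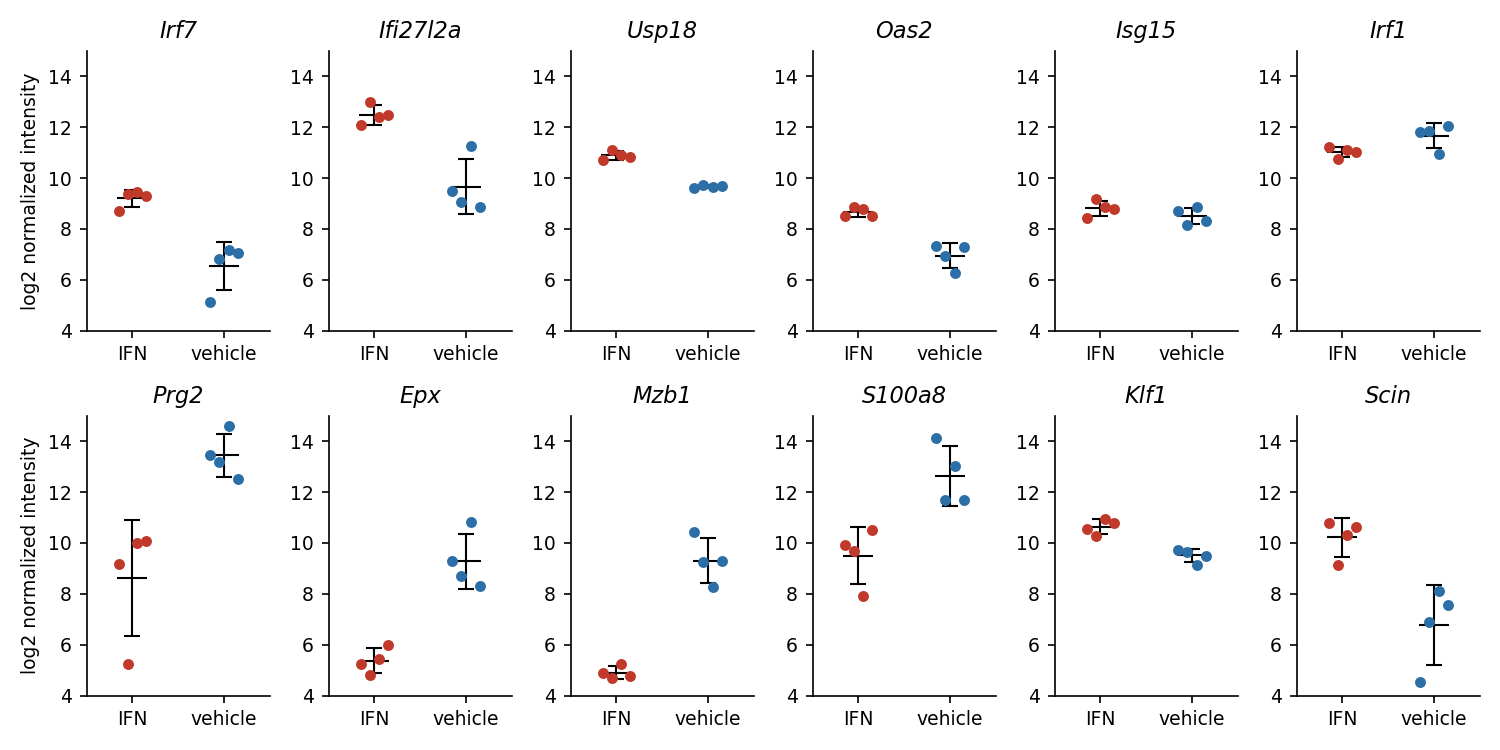
Normalized log2 intensity of 12 genes on the 4 WT interferon arrays (IFN, red) and the 4 WT vehicle arrays (blue), with mean and SD in black. The groups do not overlap in Irf7, Ifi27l2a, Usp18 and Oas2 (upper row), Prg2, Epx, Mzb1, S100a8, Klf1 and Scin (lower row), and they overlap in Isg15 and Irf1.

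The core machinery that these genes belong to was mostly not called. Stat2, a transcription factor of the pathway, changed by 0.05 (SE 0.29, adjusted p = 0.917 in limma) and Irf9 by 0.32 (SE 0.18, adjusted p = 0.219). The receptor chain Ifnar2 changed by 0.57 (adjusted p = 0.409), Jak1 by −0.01 (adjusted p = 0.958) and Tyk2 by 0.47 (adjusted p = 0.147). In the JAK-STAT and interferon receptor list 1 of 13 tested members was called (4 unadjusted, 3 higher and 1 lower), with a list median of 0.10. The called gene was Ifngr1, the binding chain of the interferon gamma receptor. It stood at 10.06, 9.79, 10.51 and 10.22 with interferon, against 9.35, 9.17, 8.74 and 9.03 with vehicle, a change of 1.07 (SE 0.20, adjusted p = 0.0196). It was no longer called without WT interferon replicate 1 (0.054), 3 (0.0748) or 4 (0.0631). Jak2, the kinase mutated in the other genotype, was higher on every interferon array, by 0.70 (SE 0.22, adjusted p = 0.0708). Without WT interferon replicate 2 it was called (0.0177).

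Of 8 interferon regulatory factors tested, Irf7 alone was called (4 unadjusted, 1 higher and 3 lower), and the list median was −0.19. Irf1, an early interferon target, stood at 11.21, 10.76, 11.09 and 11.01 with interferon, against 11.82, 11.84, 10.93 and 12.03 with vehicle. Its change was −0.64 (SE 0.24, adjusted p = 0.0972), and vehicle replicate 3 was the lowest of its group. Without that array Irf1 was called lower (0.045). Irf8, a factor of monocyte fate, changed by −0.74 (SE 0.32, adjusted p = 0.129).

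Among 5 ISG15 conjugation genes, Usp18 was called (2 unadjusted, all higher). Isg15, the ubiquitin-like protein itself, stood at 8.42, 9.17, 8.87 and 8.78 with interferon, against 8.71, 8.16, 8.85 and 8.32 with vehicle, a change of 0.30 (SE 0.27, adjusted p = 0.444). The groups overlapped. Its activating enzyme Uba7 changed by 0.20 (SE 0.17, adjusted p = 0.43). Of 8 oligoadenylate synthetase genes tested, 2 were called (5 unadjusted, all higher) and all 8 differences were above 0, with a median of 0.62 (0.14 under median centring, where the median over all genes was −0.14). Leaving out WT interferon replicate 2 gave 5 calls among the 8, all higher, where 1016 of all 9680 genes were called higher.

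Of 36 antiviral effectors tested, Ifi27l2a and Phf11d were called and 30 differences were above 0, with a median of 0.48 beside 0.05 over all genes (0.19 beside −0.14 under median centring). At an unadjusted p under 0.05 in limma there were 17 of the 36, 16 higher and 1 lower, beside 31.8% of all genes in either direction. In 9 of the 36 the groups did not overlap with interferon higher, against 5.6% of all genes tested. Ifit2, which binds viral RNA, was higher on every interferon array, by 0.73 (SE 0.21, adjusted p = 0.0632), and was called without WT interferon replicate 2 (0.0313) or without WT vehicle replicate 2 (0.0307) or 4 (0.0268). Ifitm3, which blocks viral entry, changed by 0.48 (SE 0.15, adjusted p = 0.0755) and was called without WT vehicle replicate 2 (0.0479) or 4 (0.0396). Ifit3 changed by 0.80 (SE 0.35, adjusted p = 0.135), Rsad2 (viperin) by 0.48 (SE 0.25, adjusted p = 0.197) and Bst2 (tetherin) by 0.19 (SE 0.25, adjusted p = 0.603). Without WT vehicle replicate 2, 9 of the 36 were called higher, beside 681 of all 9680 genes. Ly6e, an interferon-induced surface protein chosen after its value was seen, rose by 0.66 (SE 0.15, adjusted p = 0.0361). It was no longer called without WT interferon replicate 1 (0.054), 3 (0.116) or 4 (0.119), without WT vehicle replicate 1 (0.0953) or 3 (0.0688), or without 5 single Jak2VF arrays (0.0507 to 0.0542).

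Limma called 0 of 11 cytosolic nucleic acid sensors, with 5 at an unadjusted p under 0.05 (3 higher and 2 lower). Aim2, a DNA sensor of the inflammasome, had the smallest p and changed by −0.77 (adjusted p = 0.0567), and it was called without WT interferon replicate 2 (0.0447) or without WT vehicle replicate 2 (0.0342) or 4 (0.0413). Limma called 0 of 10 immunity GTPases with all arrays (4 unadjusted, 1 higher and 3 lower), 1 lower without WT interferon replicate 2 and 1 higher without WT vehicle replicate 4. The GTPases destroy the vacuoles of intracellular microbes and are strong targets of interferon gamma. Gbp2 changed by −0.19 (SE 0.25, adjusted p = 0.615) and Irgm2 by −0.72 (SE 0.32, adjusted p = 0.143), and the list median was −0.24. Gbp6, with the smallest p of the list, changed by −0.63 (adjusted p = 0.0913) and was called without WT interferon replicate 2 (0.0392). None of the STAT feedback genes was called by limma, 0 of 15 (4 unadjusted). Socs3, a feedback inhibitor of cytokine receptors, was lower on every interferon array, at 6.12, 7.41, 6.80 and 6.36 with interferon, against 8.01, 7.67, 8.18 and 8.001 with vehicle. Its change was −1.29 (SE 0.34, adjusted p = 0.0567), and it was called without WT interferon replicate 2 (0.0163) or WT vehicle replicate 2 (0.0372) or 4 (0.0408).

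Promoters are printed for genes that differ in this response, Irf7 and Oas1g, which rose, and Isg15 and Ifit3, which were not called. They run from 250 bases before to 50 after the gene start in RefSeq (build GRCm38.p6), 5′ to 3′ on the gene's strand, with capitals where the response element core GAAANNGAAA occurs on either strand (read in reverse complement on the other). Overlapping matches share letters.
Irf7 (chr7:141266375-141266674, minus strand): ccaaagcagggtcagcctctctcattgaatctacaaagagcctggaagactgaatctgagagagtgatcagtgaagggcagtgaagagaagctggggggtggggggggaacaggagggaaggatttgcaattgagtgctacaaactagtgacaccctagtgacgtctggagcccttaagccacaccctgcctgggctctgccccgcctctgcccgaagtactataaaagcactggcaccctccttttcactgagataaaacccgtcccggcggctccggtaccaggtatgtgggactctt
Oas1g (chr5:120887564-120887863, minus strand): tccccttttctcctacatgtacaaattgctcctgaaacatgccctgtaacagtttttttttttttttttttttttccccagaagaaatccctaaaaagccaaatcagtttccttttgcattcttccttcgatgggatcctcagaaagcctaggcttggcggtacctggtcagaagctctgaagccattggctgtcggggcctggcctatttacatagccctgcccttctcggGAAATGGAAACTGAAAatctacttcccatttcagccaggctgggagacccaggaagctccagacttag
Isg15 (chr4:156200769-156201068, minus strand): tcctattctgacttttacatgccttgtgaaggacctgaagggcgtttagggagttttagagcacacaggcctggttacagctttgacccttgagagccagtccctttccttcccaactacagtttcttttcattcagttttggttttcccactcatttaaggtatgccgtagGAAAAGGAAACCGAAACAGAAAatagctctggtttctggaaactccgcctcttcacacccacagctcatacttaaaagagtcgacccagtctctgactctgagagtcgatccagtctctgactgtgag
Ifit3 (chr19:34583279-34583578, plus strand): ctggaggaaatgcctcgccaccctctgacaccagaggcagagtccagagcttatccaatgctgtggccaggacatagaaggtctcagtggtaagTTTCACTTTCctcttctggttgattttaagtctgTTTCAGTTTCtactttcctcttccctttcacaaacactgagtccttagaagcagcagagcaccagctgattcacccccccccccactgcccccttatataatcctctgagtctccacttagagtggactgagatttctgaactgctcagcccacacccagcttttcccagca

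The core appeared 2 times in the Oas1g window, between 18 and 3 bases before the start, and 3 times in the Isg15 window, between 78 and 57 bases before it. The Ifit3 window held 2 matches on the opposite strand, and the Irf7 window held none. Both called and uncalled genes thus held the letters. Of the 90 genes of the interferon lists 73 had a promoter in the table, and 28 of these (38.4%) held the core, against 3.99% of all 27025 promoters. Of the 28 with the core 1 rose (Oas1g), with a median change of 0.17, and of the 45 without it 3 rose, with a median of 0.44. Usp18, Oas2 and Ifi27l2a, which also rose, were not among the 73. Among all called genes the core was found in 4 of 84 promoters of genes that rose (4.76%) and 2 of 77 of genes that fell (2.6%), against 289 of 7568 over all tested genes (3.82%). A match is a description of letters and not a binding site.

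The deepest falls were in genes of eosinophil granules. Of 13 genes of the eosinophil granule list on the array 8 passed the detection filter. All 8 were called lower, against 1.01% of all genes tested, with changes from −3.55 to −4.82. In all 8 the groups did not overlap, against 5.1% of all genes with interferon lower. Each was detected on all 4 vehicle arrays, which alone were enough to pass the filter, so the count does not cover list genes that were not detected. The list was chosen with earlier results of these data known, so these shares describe it and do not test it. The near-identical Ear genes among the 8 are not separate counts. Prg2, the major basic protein, stood at 9.19, 5.23, 9.98 and 10.09 with interferon, against 13.46, 13.20, 14.58 and 12.53 with vehicle. Its change was −4.82 (SE 1.06, adjusted p = 0.0348 in limma), and interferon replicate 2 was lowest. Epx, the eosinophil peroxidase, stood at 5.25, 4.81, 5.42 and 6.003 with interferon, against 9.28, 8.70, 10.80 and 8.31 with vehicle. Its change was −3.90 (SE 0.48, adjusted p = 0.00138). Prg3, a paralog of Prg2, changed by −4.10 (SE 0.59, adjusted p = 0.00293).

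The ribonucleases Ear4, Ear2, Ear12, Ear10 and Ear6, which eosinophils store in the same granules, had changes of −4.12, −3.96, −3.72, −3.61 and −3.55 in that order. These genes are near-identical, so the probes cannot be assigned to one of them with certainty. Ear6 was the only 1 of the 8 detected on all 8 arrays, at 5.51, 5.81, 6.56 and 5.69 with interferon, against 9.56, 8.86, 10.81 and 8.54 with vehicle (adjusted p = 0.0018). The summed linear level of the 8 genes ran from 247 to 1530 with interferon and from 8120 to 39300 with vehicle, where the dim replicate 3 was highest. Without that array Epx still changed by −3.39 (adjusted p = 0.000544), while Prg2 was not called (0.0663). Prg2 also lost its call without WT interferon replicate 1 (0.0873), 3 (0.0705) or 4 (0.0618) or without WT vehicle replicate 1 (0.0947), or Jak2VF interferon replicate 3 (0.0516). The eosinophil receptor genes Il5ra and Ccr3 were not detected on any of the 8 arrays.

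Of 6 B and plasma cell genes tested 2 were called lower, Mzb1 and Jchain, with a list median of −0.41. Mzb1, a chaperone of antibody assembly, stood at 4.89, 4.69, 5.25 and 4.78 with interferon, against 10.41, 9.25, 8.28 and 9.29 with vehicle. Its change was −4.41 (SE 0.38, adjusted p = 6.93e-05 in limma), and it was detected on 1 interferon array and on all 4 vehicle arrays. Jchain, the joining chain of antibodies, was detected on no interferon array, at 4.61, 4.74, 4.91 and 4.83 with it, against 7.05, 7.12, 7.88 and 6.13 with vehicle. It was at least 3.5-fold lower with interferon (adjusted p = 0.00638 in limma). For such a bound, each array of the dim group counts at its lowest detected signal, or at the probe's own where that is higher, and the bright group's mean is divided by the mean of these. The B cell surface gene Ms4a1 (CD20) changed by −0.60 (adjusted p = 0.242). Vpreb1, a surrogate light chain of early B cells, was the 1 member with a difference above 0, at 1.29 (SE 0.38, adjusted p = 0.0657), and was called without WT vehicle replicate 2 (0.0218) or 4 (0.0298).

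In neutrophil and monocyte genes 3 of 23 were called lower and 20 differences were below 0, with a median of −0.51. The calprotectin subunit S100a8 stood at 9.92, 9.68, 7.90 and 10.50 with interferon, against 14.12, 11.69, 13.03 and 11.70 with vehicle. Its change was −3.13 (SE 0.66, adjusted p = 0.0315 in limma). Its partner S100a9 changed by −3.22 (SE 0.71, adjusted p = 0.0344) and the chitinase-like gene Chil3 by −2.36 (SE 0.52, adjusted p = 0.035). All 3 calls were lost without any of 4 WT arrays, while the changes stayed between −2.07 and −3.34. The adjusted p of S100a8, S100a9 and Chil3 was 0.0754, 0.0872 and 0.108 without WT interferon replicate 1, and 0.0902, 0.108 and 0.112 without WT interferon replicate 3. It was 0.0931, 0.0953 and 0.101 without WT vehicle replicate 1, and 0.0548, 0.0642 and 0.0682 without WT vehicle replicate 3. Chil3 was also not called without WT interferon replicate 4 (0.0618), nor Chil3 (0.0507 and 0.0508) and S100a9 (0.0518 and 0.0516) without Jak2VF interferon replicates 2 and 3. With array quality weights the changes were −1.92 for S100a8 (adjusted p = 0.0574), −1.68 for S100a9 (0.118) and −1.15 for Chil3 (0.11), and none was called. The granule enzymes of less mature cells, Elane (−1.04, adjusted p = 0.171) and Mpo (−0.28, adjusted p = 0.651), were not called. Nor were other neutrophil genes, Ltf (−1.65, adjusted p = 0.0662), Camp (−1.68, adjusted p = 0.251) and Ngp (−0.29, adjusted p = 0.728). Whether changes differ between more and less mature cells was not tested.

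The array with the highest values was not the same for each kind of mature-cell gene. The summed level of the neutrophil and monocyte list ran from 27800 to 36200 with interferon and from 37800 to 104000 with vehicle. That of B and plasma cell genes ran from 2810 to 3310 with interferon and from 3420 to 4940 with vehicle. Vehicle replicate 1 was highest in both lists, where vehicle replicate 3 was highest in eosinophil granule genes. T and NK cell genes had 0 of 8 called by limma (1 unadjusted, sums of 8240 to 14000 with interferon and 11500 to 14000 with vehicle). Cd3d, Cd3e and Ncr1 were not detected on any WT array, while Lck (−0.28, adjusted p = 0.421) and Nkg7 (−0.08, adjusted p = 0.743) were detected on all of them. By limma 0 of 5 dendritic cell genes (1 unadjusted) and 0 of 9 mast cell and basophil genes (2 unadjusted) were called. The members with the smallest p were Cd247, the zeta chain of the T cell receptor (−1.51, adjusted p = 0.0505), Ly6d (−1.13, adjusted p = 0.0567) and Ms4a2, a chain of the IgE receptor (1.53, adjusted p = 0.0507). All 3 were called without WT interferon replicate 2 (0.0101, 0.0314 and 0.00816). Ms4a2 was detected on 3 interferon arrays and on no vehicle array, so its vehicle values lay near background. Of the 9 mast cell and basophil differences 6 were below 0, with a median of −0.41. The part that cells outside the stem cell gate had in the changes of mature-cell genes was not tested.

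Of 9 class II antigen presentation genes tested, 1 was called lower (0 to 4 with 1 array left out). Of the 9 differences 8 were below 0, the median was −0.98 (−0.88 under median centring), and 4 had groups that did not overlap, against 5.1% of all genes with interferon lower. H2-DMb1, a chain of the peptide-loading molecule, was the called gene, at 9.25, 10.08, 9.74 and 9.51 with interferon, against 10.80, 10.75, 10.59 and 10.39 with vehicle. Its change was −0.98 (SE 0.18, adjusted p = 0.0148), and it was no longer called without WT interferon replicate 1 (0.054) or 4 (0.0617) or without WT vehicle replicate 1 (0.0544). H2-Aa, the alpha chain of the class II molecule, changed by −1.11 (SE 0.30, adjusted p = 0.0567), and Cd74, its invariant chain, by −1.18 (SE 0.37, adjusted p = 0.0713). Both were lower on every interferon array. In class I presentation and the immunoproteasome 0 of 19 were called by limma with all arrays (10 unadjusted, 6 higher and 4 lower), and the median was 0.08. Psmb10, an immunoproteasome subunit, changed by −0.68 (adjusted p = 0.0523), and was called without WT interferon replicate 2 (0.0127), WT vehicle replicate 2 (0.0333) or 4 (0.038) or Jak2VF interferon replicate 1 (0.0499).

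**Figure D4:**
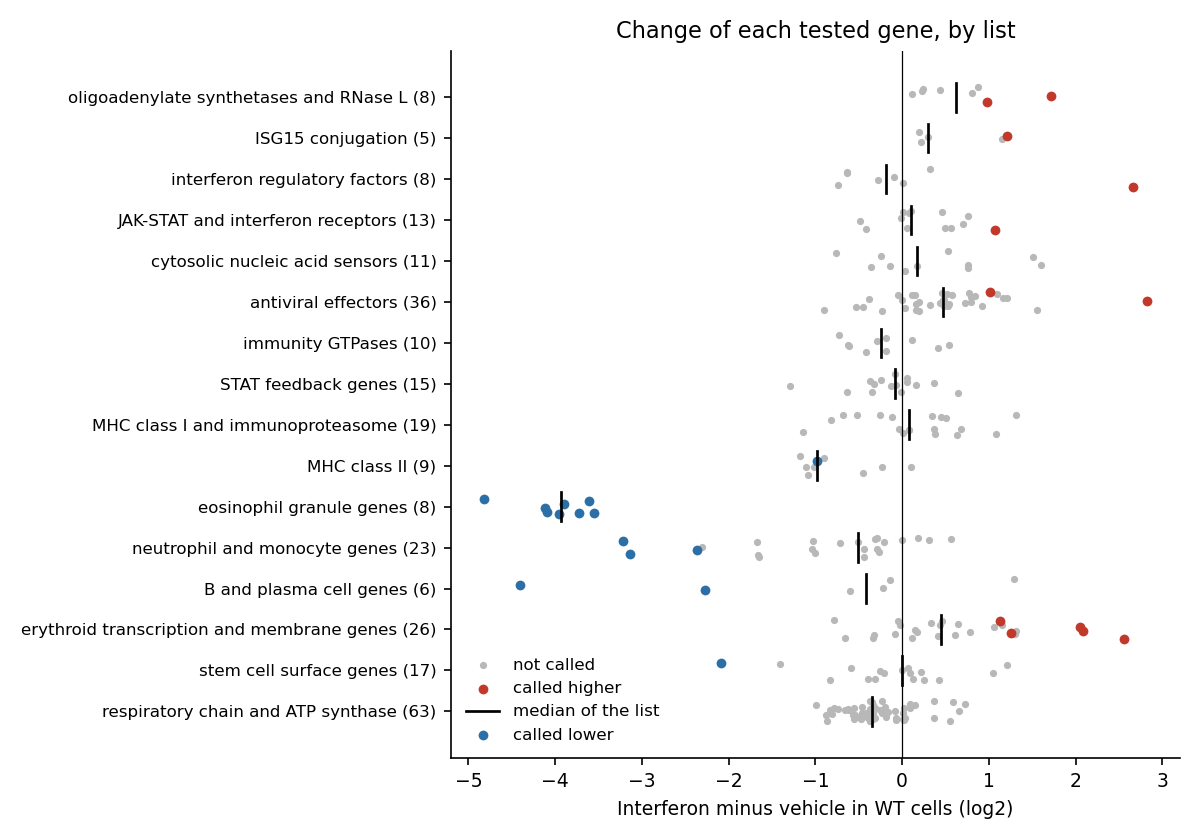
Change of each tested gene (log2, interferon minus vehicle) in 16 gene lists, with the number tested in brackets. Red points were called higher, blue points called lower and grey points were not called, and black bars mark the list medians, from −3.93 in eosinophil granule genes to 0.62 in oligoadenylate synthetases.

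Red cell genes rose in part. Of 26 erythroid transcription and membrane genes 5 were called higher and 0 lower in limma (13 unadjusted, of which 12 were higher), and the median was 0.45. The count ran from 4 to 11 with 1 WT array left out, the most without WT interferon replicate 2. Under median centring 2 were called, with a median of 0.24, and with brightness as a covariate 0. Tspo2, a cholesterol transporter of late red cell precursors, stood at 7.67, 7.97, 9.07 and 8.10 with interferon, against 6.53, 5.70, 4.70 and 5.63 with vehicle, a change of 2.56 (SE 0.37, adjusted p = 0.00293). Kel, of the Kell blood group, changed by 2.05 (SE 0.32, adjusted p = 0.00489), and by 1.10 under median centring (0.0504). Kel was detected on 2 and Tspo2 on 3 of the 4 vehicle arrays, so some of their vehicle values lay near background. Klf1, the master factor of red cell genes, named here after its value was seen, stood at 10.54, 10.27, 10.95 and 10.79 with interferon, against 9.74, 9.66, 9.15 and 9.49 with vehicle. Its change was 1.13 (SE 0.19, adjusted p = 0.00758).

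The water channel Aqp1 changed by 1.25 (SE 0.30, adjusted p = 0.0435) and was the least stable of the 5, losing its call without WT interferon replicate 1 (0.129), 3 (0.121) or 4 (0.129), WT vehicle replicate 1 (0.0953) or 3 (0.0798) and 7 of the 8 Jak2VF arrays. Of 16 heme synthesis and globin genes 0 were called by limma with all arrays (5 unadjusted, 3 higher and 2 lower). Hba-a1, an alpha globin, changed by −0.02 (adjusted p = 0.987) and Hbb-b1, a beta globin, by −0.75 (adjusted p = 0.15), while Slc4a1 (band 3) changed by −0.33 (adjusted p = 0.553). In limma 0 of 25 megakaryocyte and platelet genes were called (6 unadjusted). Slc25a38, a mitochondrial carrier for heme synthesis, had the smallest p of its list at 0.44 (adjusted p = 0.0791) and was called without WT interferon replicate 2 (0.0271) or WT vehicle replicate 2 (0.037). The platelet receptor gene F2rl2 changed by 1.52 (adjusted p = 0.0797) and was called without WT vehicle replicate 2 (0.0351) or 4 (0.0366).

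Of genes that mark or maintain stem cells, few were called. Ly6a (Sca-1), a marker of the stem and progenitor gate that interferon is known to raise, stood at 11.26, 12.003, 12.13 and 12.06 with interferon, against 11.44, 11.69, 11.52 and 11.92 with vehicle, a change of 0.22 (SE 0.20, adjusted p = 0.451). Kit, another marker of the gate, is not analysed here. Cd34, a marker of progenitors, changed by −0.83 (SE 0.24, adjusted p = 0.0644) and Slamf1 (CD150), a stem cell marker, by 1.21 (SE 0.43, adjusted p = 0.0897), and in both the groups did not overlap. Ptprc, the gene of CD45, changed by −0.21 (SE 0.17, adjusted p = 0.375). In the list of stem cell surface genes 1 of 17 was called, Sult1a1, at −2.09 (SE 0.45, adjusted p = 0.0335), a sulfotransferase enriched in stem cells and not itself a surface protein. It lost its call without WT interferon replicate 1 (0.116), 3 (0.106) or 4 (0.0694) or without WT vehicle replicate 1 (0.0953) or 3 (0.0649) or Jak2VF interferon replicate 3 (0.0508).

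Of 29 genes tested in the list of stem cell transcription factors 2 were called, Trib2 and Sox4, both higher, with a list median of −0.02. Of these 2 only Sox4 is a transcription factor. At an unadjusted p under 0.05 there were 14, of which 5 were higher and 9 lower, and without WT interferon replicate 2 limma called 3 higher and 5 lower. Trib2, a pseudokinase that lowers C/EBP alpha, stood at 9.77, 8.65, 10.03 and 9.71 with interferon, against 7.78, 7.37, 4.75 and 7.55 with vehicle, where replicate 3 was not detected. Its change was 2.68 (SE 0.52, adjusted p = 0.0209), and it was no longer called without WT interferon replicate 1 (0.0754), 3 (0.077) or 4 (0.0693). Sox4, a factor of progenitors, changed by 1.13 (SE 0.23, adjusted p = 0.0258) but was detected on no vehicle array, and under median centring its sign turned (−0.15). It was no longer called without WT interferon replicate 1 (0.0619), 3 (0.0839) or 4 (0.0873) or without WT vehicle replicate 1 (0.0865).

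Cell cycle lists held no called gene with all arrays. Limma called 0 of 17 quiescence genes and CDK inhibitors (3 unadjusted), 0 of 32 G1/S genes (8 unadjusted) and 0 of 24 G2/M genes (8 unadjusted). Without WT interferon replicate 2 it called 2 of the 17, 8 of the 32 and 6 of the 24 higher, and 2, 3 and 0 lower. With that array left out, 1016 of all 9680 genes were called higher and 983 lower. Cdkn1c (p57), the CDK inhibitor tied to stem cell quiescence, stood at 6.65, 8.68, 7.26 and 7.36 with interferon, against 9.20, 8.71, 10.30 and 8.69 with vehicle. Its change was −1.74 (SE 0.50, adjusted p = 0.0632), and it was called without WT interferon replicate 2 (0.0168) or without WT vehicle replicate 2 (0.0414) or 4 (0.0354). Mcm7, a helicase subunit of DNA replication, changed by −0.82 (adjusted p = 0.0661), and was called without the same arrays (0.0397, 0.0345 and 0.0223 in that order). Top2a, a topoisomerase of dividing cells, changed by 1.17 (SE 0.36, adjusted p = 0.0689), and was called likewise (0.0257, 0.0316 and 0.0265 in that order). Of 34 ribosome biogenesis and Myc target genes 1 was called, the chaperonin Hspd1, at 0.75 (SE 0.16, adjusted p = 0.0321). It lost that call without WT interferon replicate 1 (0.102), 3 (0.0871) or 4 (0.100) or without WT vehicle replicate 1 (0.0931) or 3 (0.0626) or Jak2VF interferon replicate 2 (0.0506).

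In respiratory chain and ATP synthase genes the count depended on single arrays. With all arrays limma called 0 of 63 (37 unadjusted, 31 of them lower), 49 differences were below 0, and the median was −0.34 (−0.47 under median centring). Without WT interferon replicate 2, 34 of the 63 were called lower and 3 higher, and without WT vehicle replicate 4 it was 14 and 2. Over all 9680 genes the first omission gave 983 lower and 1016 higher, and the second 701 and 908. Ndufb2, a subunit of complex I, had the smallest p at −0.84 (adjusted p = 0.0594), and was called without WT interferon replicate 2 (0.0172) or WT vehicle replicate 2 (0.0409) or 4 (0.0197). Immediate early genes had 17 of 20 differences below 0, a median of −0.48 and 0 calls by limma (6 unadjusted). Without WT interferon replicate 2, 5 of the 20 were called lower, beside 983 of all 9680 genes. Fosb, an AP-1 subunit, changed by −1.48 (SE 0.39, adjusted p = 0.0567), and was called without WT interferon replicate 2 (0.021) or without WT vehicle replicate 3 (0.0132), 2 (0.048) or 4 (0.0476).

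Further lists held 4 called genes. Limma called 0 of 19 glycolysis genes (4 unadjusted), 0 of 51 cytosolic ribosomal protein genes (9 unadjusted) and 0 of 25 p53 target and apoptosis genes (8 unadjusted). Their members with the smallest p were Pgam1 (0.47, adjusted p = 0.0567), Rpl34 (−0.44, adjusted p = 0.0679) and Gadd45a (0.78, adjusted p = 0.0567), which were called without WT interferon replicate 2 (0.0182, 0.0247 and 0.0265). Of 15 metallothionein and oxidative stress genes 1 was called, the quinone reductase Nqo1, at 1.15 (SE 0.23, adjusted p = 0.0234). It lost its call without WT interferon replicate 1 (0.0854), 3 (0.0835) or 4 (0.0631) or WT vehicle replicate 1 (0.0553). Nqo1 was detected on only 1 vehicle array, and under median centring its change was 0.013 (adjusted p = 0.98). Of 12 chemokine and receptor genes 1 was called, the fractalkine receptor Cx3cr1, at 0.9998 (SE 0.23, adjusted p = 0.0384). It was detected on no vehicle array, its sign turned under median centring (−0.26), and it was no longer called without any of WT interferon replicates 1, 3 or 4 (0.119, 0.115 and 0.121) or WT vehicle replicates 1 or 3 (0.111 and 0.0765), or without 5 single Jak2VF arrays (0.0501 to 0.057). Of 12 actin capping and severing genes 2 were called, Scin and Capza1.

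The largest rises outside the interferon genes were of mixed function. Scin, an actin-severing protein, stood at 10.78, 9.13, 10.32 and 10.62 with interferon, against 4.54, 6.89, 8.13 and 7.55 with vehicle. Its change was 3.44 (SE 0.68, adjusted p = 0.0234), the largest of all called rises, and it was no longer called without WT interferon replicate 1 (0.0853), 3 (0.077) or 4 (0.0809). The sodium pump gene Atp1b2 and the capping gene Capza1 were detected on no vehicle array and were at least 2.94-fold and at least 2.82-fold higher (adjusted p = 0.00138 and 0.00499). Il31ra, a cytokine receptor chain, stood at 7.40, 7.22, 8.23 and 7.64 with interferon, against 5.86, 4.95, 4.95 and 5.88 with vehicle, a change of 2.21 (SE 0.28, adjusted p = 0.00173). Ptpn14, a tyrosine phosphatase, changed by 2.36 (SE 0.32, adjusted p = 0.00226), and Plxdc1, a plexin-domain protein, by 2.15 (SE 0.26, adjusted p = 0.00138). Each of these 3 was detected on only 1 of the 4 vehicle arrays, so most of their vehicle values lay near background. Under median centring the changes were 1.13 for Il31ra (adjusted p = 0.0504), 1.05 for Ptpn14 (0.0498) and 0.997 for Plxdc1 (0.0551), and Ptpn14 alone of them was called.

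Pdzph1 and Epdr1 completed the 12 largest rises, at 2.22 (SE 0.51, adjusted p = 0.04) and 2.09 (SE 0.45, adjusted p = 0.0335). Neither was called without WT interferon replicates 1 (0.117, 0.102), 3 (0.112, 0.101) or 4 (0.121, 0.105), nor without WT vehicle replicate 1 (0.0953 each). Pdzph1 was also not called without 6 single Jak2VF arrays (0.0513 to 0.0599), nor Epdr1 without Jak2VF interferon replicate 2 (0.051) or 3 (0.0508). In both, vehicle replicate 3 was the lowest array, at 4.60 and 5.25.

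The number of calls rested on single arrays. Without WT interferon replicates 1 to 4 it was 42, 1999, 47 and 44, and without WT vehicle replicates 1 to 4 it was 47, 1134, 121 and 1609. Of the 220 genes, 36 stayed called with any 1 of the 16 arrays left out, 21 of them higher and 15 lower. The 21 hold Irf7, Ifi27l2a, Usp18, Oas2, Oas1g, Phf11d, Tspo2, Kel, Klf1, Capza1, Atp1b2, Ptpn14, Il31ra and Plxdc1, and the 15 hold Mzb1, Jchain and the eosinophil genes other than Prg2. With array quality weights, with a slide block and without background correction all 36 were called too, with 33 called without the 3 dimmest arrays, and 26 under median centring. Of the genes that held under all of these, 11 rose and 12 fell. Under median centring calls were lost for, among others, Kel, Aqp1, Atp1b2, Il31ra and Hspd1 (adjusted p = 0.0504 each), Capza1 (0.051), Plxdc1 (0.0551), Ly6e (0.0542) and Nqo1 (0.98). The fitted changes of Sox4 (−0.15, 0.785), Cx3cr1 (−0.26, 0.513) and Ggt5 (−0.52, 0.232) turned below 0. Under the same centring the fitted changes of Atp1b2 (1.24) and Capza1 (1.22) were below the bounds given above, which hold for quantile-normalized values alone. Without the 3 dimmest arrays Prg2 (0.0993), S100a8 (0.101), S100a9 (0.123), Chil3 (0.139), Sult1a1 (0.0824), Sox4 (0.0617), Cx3cr1 (0.0948), Ggt5 (0.0911), Pdzph1 (0.0572) and Ly6e (0.117) were not called. Fitted on the WT arrays alone, only Mzb1 was called (0.0275), and Usp18, Epx, Oas2 and Oas1g were among genes whose adjusted p was just above the threshold, at 0.05 as rounded. With log2 brightness as a covariate only 3 genes were called, Usp18, Ifi27l2a and Mzb1.

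**Figure D5:**
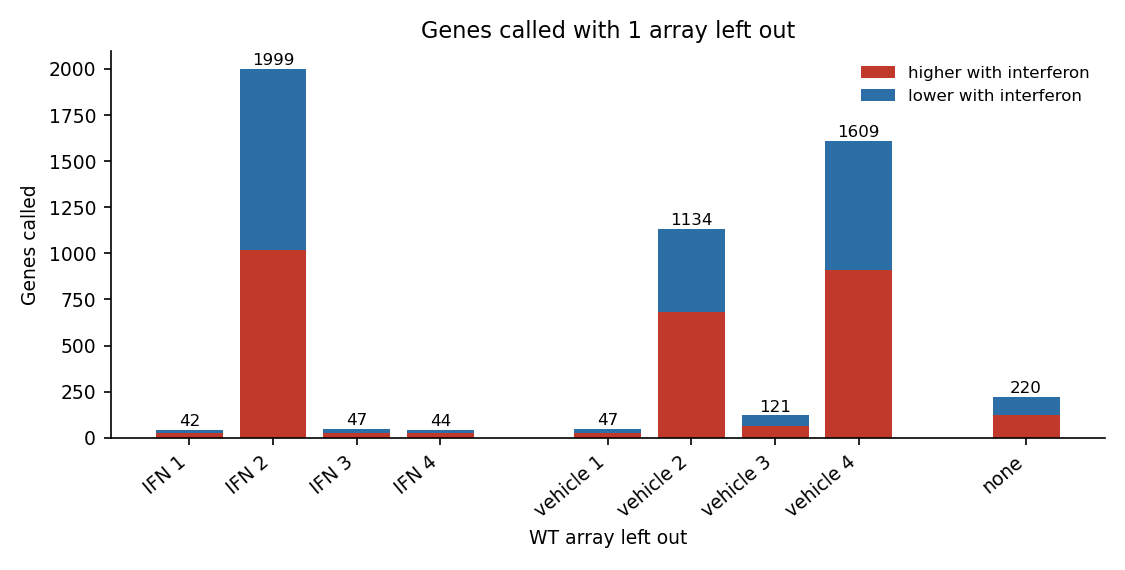
Genes called with 1 WT array left out, stacked as higher (red) and lower (blue) with interferon, beside the 220 called with all arrays (none). The counts run from 42 without WT interferon replicate 1 to 1999 without WT interferon replicate 2.

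In Jak2VF cells the same contrast, measured on other arrays of the same 2 slides, called 1546 of 9680 genes (16%), 630 higher and 916 lower. The mean intensity of the Jak2VF arrays was 883.6 with interferon and 497.6 with vehicle. Of the 122 genes that rose in WT cells 53 were also called higher in Jak2VF cells, and of the 98 that fell 53 were also called lower. These 106 make 48.2% of the WT calls and 6.86% of the Jak2VF calls. The part of brightness in this overlap was not tested. The difference of the changes was called for 11 genes in limma (0.114%), with 1361 at an unadjusted p under 0.05. Only 1 of them, Ggt5, was among the 220, and it changed by 0.81 in WT cells (SE 0.16, adjusted p = 0.0242) and by −0.52 in Jak2VF cells (SE 0.16, adjusted p = 0.0404), though it was detected on no WT vehicle array, and under median centring its WT sign turned (−0.52). In WT it was no longer called without WT interferon replicate 1 (0.0563), 3 (0.077) or 4 (0.0873) or without WT vehicle replicate 1 (0.0772).

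The other 10 were not called in WT cells. The largest differences below 0, where the change in WT cells was the lower, were in Tlcd4 (−2.92, SE 0.40, adjusted p = 0.0142), Sfrp4 (−2.28, SE 0.26, adjusted p = 0.00338), Abcg4 (−1.90, SE 0.30, adjusted p = 0.0246), Paqr9 (−1.90, SE 0.27, adjusted p = 0.0142) and Rhd, a red cell antigen (−1.60, SE 0.28, adjusted p = 0.0422). Tlcd4, Sfrp4 and Rhd were detected on no WT array. Irf7 changed by 2.66 in WT cells and by 2.29 in Jak2VF cells, and Ifi27l2a by 2.82 and 2.49. Usp18 changed by 1.21 in WT cells and by 0.40 in Jak2VF cells, and the difference of 0.81 (SE 0.15, adjusted p = 0.0579) missed the threshold.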

How the data were processed

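The deposited table gives 25697 probes with an average signal and a detection p-value per array, per the file headers, the signal being a linear intensity not normalized between arrays. A second deposited table holds intensity values processed by the authors, used as an alternative only. The scanner software is not given in the sources used here. Per the labels, RNA was extracted with a PicoPure kit and amplified with a TotalPrep kit.

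Intensities were background corrected with normexp (offset 16, background inferred from detection p-values), normalized by quantiles and log2 transformed by the neqc function of limma 3.58.1, run in R 4.3.3. Probes with a detection p under 0.05 on at least 4 of 16 arrays were kept (13364), and the brightest stood for its gene (9680 genes). Symbols were updated from RefSeq (GRCm38.p6) for 7082 probes, 17548 were current, 1046 were kept as given, and 21 turned into dates were dropped. Of 62 other probes of called genes 50 had the same sign. The model, with a mean for each of 4 groups, was fitted by lmFit and eBayes (12 residual degrees of freedom). All adjusted p-values of genes are from limma. The number of arrays limits the precision. The procedure was tested on simulated data.

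The comparison and the 33 gene lists were chosen with earlier results of these data known. Named genes were the 12 largest rises and falls among called genes with groups that did not overlap and the probe detected on all 4 arrays of the higher group, up to 4 called members per list or the one with the smallest p, members of the interferon lists, Jak2, Ptprc and Ly6a, and the 5 largest called differences between genotypes each way. Named after seeing their values, outside this rule, were Klf1, Ly6e, Cd34, Slamf1, Elane, Mpo, Ltf, Camp, Ngp, Lck, Nkg7, Ms4a1, Vpreb1, H2-Aa, Cd74, Hba-a1, Hbb-b1 and Slc4a1. Some genes that these rules name are not reported here. Alternatives changed the background correction, scaling, filter, probe choice, slide, samples, array weights, brightness and variance model, and left out each array. Figures were drawn with matplotlib 3.10.9.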

Additional observations from a re-analysis of the deposited data

Results flagged for a closer look

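In groups of 4 arrays, an array was marked where its gap to the nearest other array, over the range of the group, passed Dixon's 95% critical value for 4 values. Of 190 groups of values tested over the named genes, with Ltf, Camp, Ngp, Lck and Nkg7 left aside, 9 were marked, and chance marks about 1 in 20. With interferon these were Cd247 (0.949, replicate 2 highest), Cx3cr1 (0.853, replicate 2 lowest), Slc25a38 (0.853), Ly6a (0.858, replicate 1 lowest at 11.26) and Ear12 (0.842, replicate 4 highest at 5.76). With vehicle they were Atp1b2 (0.904, replicate 1 highest at 5.82), Plxdc1 (0.838, replicate 1 highest at 6.08), Ifnar2 (0.888, replicate 3 lowest at 5.50) and Trib2 (0.863, replicate 3 lowest at 4.75).

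The change with interferon differed between WT and Jak2VF cells, by the test of the difference in limma, for Ggt5 (1.33, adjusted p = 0.0422), Abcg4 (−1.90), Paqr9 (−1.90), Rhd (−1.60), Sfrp4 (−2.28) and Tlcd4 (−2.92) among the same named genes.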

How the results depend on the processing

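Of 220 genes called in WT cells and 11 called for the difference between genotypes, the counts moved as follows, the first number being WT and the second the difference. They were 660 and 62 in the authors' normalized values, 726 and 76 without background correction, 119 and 7 with no filter on dim probes, 570 and 138 in genes detected on all 16 arrays, 1930 and 145 with array quality weights, 663 and 87 with a trended and robust variance, and 3 and 22 with brightness as a covariate. Within slides 1 and 2 they were 0 and 0 in limma, where 987 and 1678 WT genes had an unadjusted p under 0.05. The mean of passing probes gave 355 WT calls, the WT arrays alone 1 (1916 unadjusted), and omission of the dimmest WT array 121. Without the 3 dimmest arrays 180 WT genes were called, 77 of them among the 220, and 2 differences. With the slide as a block 180 WT genes were called. With 1 array left out WT calls ran from 42 to 1999 and differences from 2 to 25. Chosen after seeing the data, genes detected on all 8 WT arrays gave 606 and 131, and omission of the dimmest array of each WT group gave 1493 WT calls. Median centring gave 84 higher and 237 lower WT genes, with 26.2% higher in place of 55.5%, and 1 difference. There the median change over all genes was −0.14, and the sign turned for Ggt5 (−0.52), Sox4 (−0.15) and Cx3cr1 (−0.26). The brightness difference ran from 0.856 to 1.487 with 1 array left out. With the last base of the motif dropped, 10.7% of promoters of genes that rose, 14.3% of genes that fell and 8.69% of all tested held it. The cause of these shifts was not tested. No paired analysis was possible because the labels give the arrays no replicate numbers, those used here following the order of the sample records. Signal near background limits the 33 rises with no detected vehicle array.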
